A study of Rattus norvegicus with 40 samples.

Results

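The livers of 4 rat fetuses were compared with those of 3 fasted and refed adult rats on 7 of the 40 arrays of a series made to study how the kinase mTOR controls translation in liver. The 7 arrays were chosen by their labels alone, as total RNA of animals injected with dimethyl sulfoxide (DMSO), the solvent of the drug rapamycin. Each value is a log2 intensity on an Affymetrix Rat Gene 1.0 ST array for 1 transcript cluster, the set of probes that reads 1 gene, and a difference of 1 on this scale is a 2-fold difference. Intensities of different genes were not set against each other, since probes differ in brightness.

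All rats were Sprague Dawley. The fetuses were injected with DMSO on day 19 of gestation and delivered 24 h later, on day 20. The adults, of 125 to 150 g, had fasted for 48 h before the DMSO injection and ate freely for 3 h starting 1 h after it. Age, feeding and time since injection thus differ together between the groups, and their shares in any difference cannot be told apart. Beside these groups stand the total RNA of 3 adult livers 24 h after partial hepatectomy with DMSO, of 4 fetal livers with 50 µg of rapamycin per fetus and of 3 refed adult livers with 250 µg of rapamycin per 100 g of body weight. Arrays of a group are labelled as biological replicates, without the mother of each fetus or the sex of any animal, so the p-values measure the spread between these animals only.

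Before birth the liver is the main site of blood formation, where red cell precursors, megakaryocytes and granulocytes mature among the hepatocytes. Fetal hepatocytes already secrete plasma proteins, among them alpha-fetoprotein, the early counterpart of albumin, while most enzymes of drug, bile acid and amino acid breakdown are known to appear around birth or later. In tissue RNA, fewer cells of a type and less RNA per cell cannot be told apart.

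Neither the 4 fetal nor the 3 refed arrays were alike. Fetal arrays 1 and 2 differed from each other by a root mean square of 0.263 on the log2 scale and fetal arrays 3 and 4 by 0.35. Fetal arrays across these pairs differed by 0.48 to 0.532. The refed arrays differed from each other by more, 0.484 to 0.644 except for that overlap, and fetal from refed arrays by 0.807 to 1.003. The mean log2 intensity of the cytochrome P450 list was 8.51, 8.40, 9.85 and 9.70 in fetal arrays 1 to 4 (refed arrays 11.82, 12.002 and 11.38), and that of the red cell list was 11.71, 11.68, 10.90 and 10.93 (refed arrays 7.37, 7.46 and 7.28). Fetal arrays 3 and 4 therefore lay nearer to the adults in both. Fetal array 3 also held RNA of pancreas markers, with Ctrb1, a chymotrypsinogen, at 11.01 against 7.73 to 8.11 in the other fetal arrays. Refed array 3 stood apart from the other refed arrays in fasting and acute-phase genes, with the acute-phase protein A2m at 13.91 against 11.50 and 11.26. Results that depend on 1 of these arrays, or on fetal arrays 1 and 2 or 3 and 4 together, are given with and without them. Albumin, the defining product of hepatocytes, was between 14.29 and 14.45 in all 7 arrays.

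The fetal and the adult liver differed over a large share of the genes measured. Of 10860 transcript clusters tested with limma, 2771 (25.5%) were higher in the fetal livers and 1801 (16.6%) lower at an adjusted p under 0.05, 42.1% in all. These shares are the background for the counts of list members below. All fetal arrays lay above all refed arrays in 24.4% of the clusters and below them in 15%. More than 4-fold differences were found for 459 that were higher and 181 that were lower. The median difference over all clusters tested was 0.04. When every array was centred on its median, that median became −0.14 and the share of calls that were higher moved from 60.61% to 41.24%, so that small differences are reported here as values that depend on the scaling. The values come with no detection calls, so a low intensity was not separated from background, and a fold against it is a description.

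Members of the fetal hepatocyte, red cell and granulocyte lists made up 13 of the 20 largest rises. Members of the hepatocyte enzyme and transporter lists made up 10 of the 20 largest falls. Genes of these kinds outside the lists were not counted. Of the 20 genes with the largest rise, 2 were on the list of fetal hepatocyte genes, 6 on the globin and red cell lists, 5 on the granulocyte list and 1 on the DNA replication list. Of the 20 with the largest fall, 5 were on the cytochrome P450 list and 2 on the list of other detoxification enzymes. A further 2 were on the amino acid breakdown list and 1 on the transporter list. Ahsp, the chaperone of free alpha globin, led the rises at 151-fold, and Cyp2c13, a steroid and drug oxidase, led the falls at 200-fold.

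**Figure D1:**
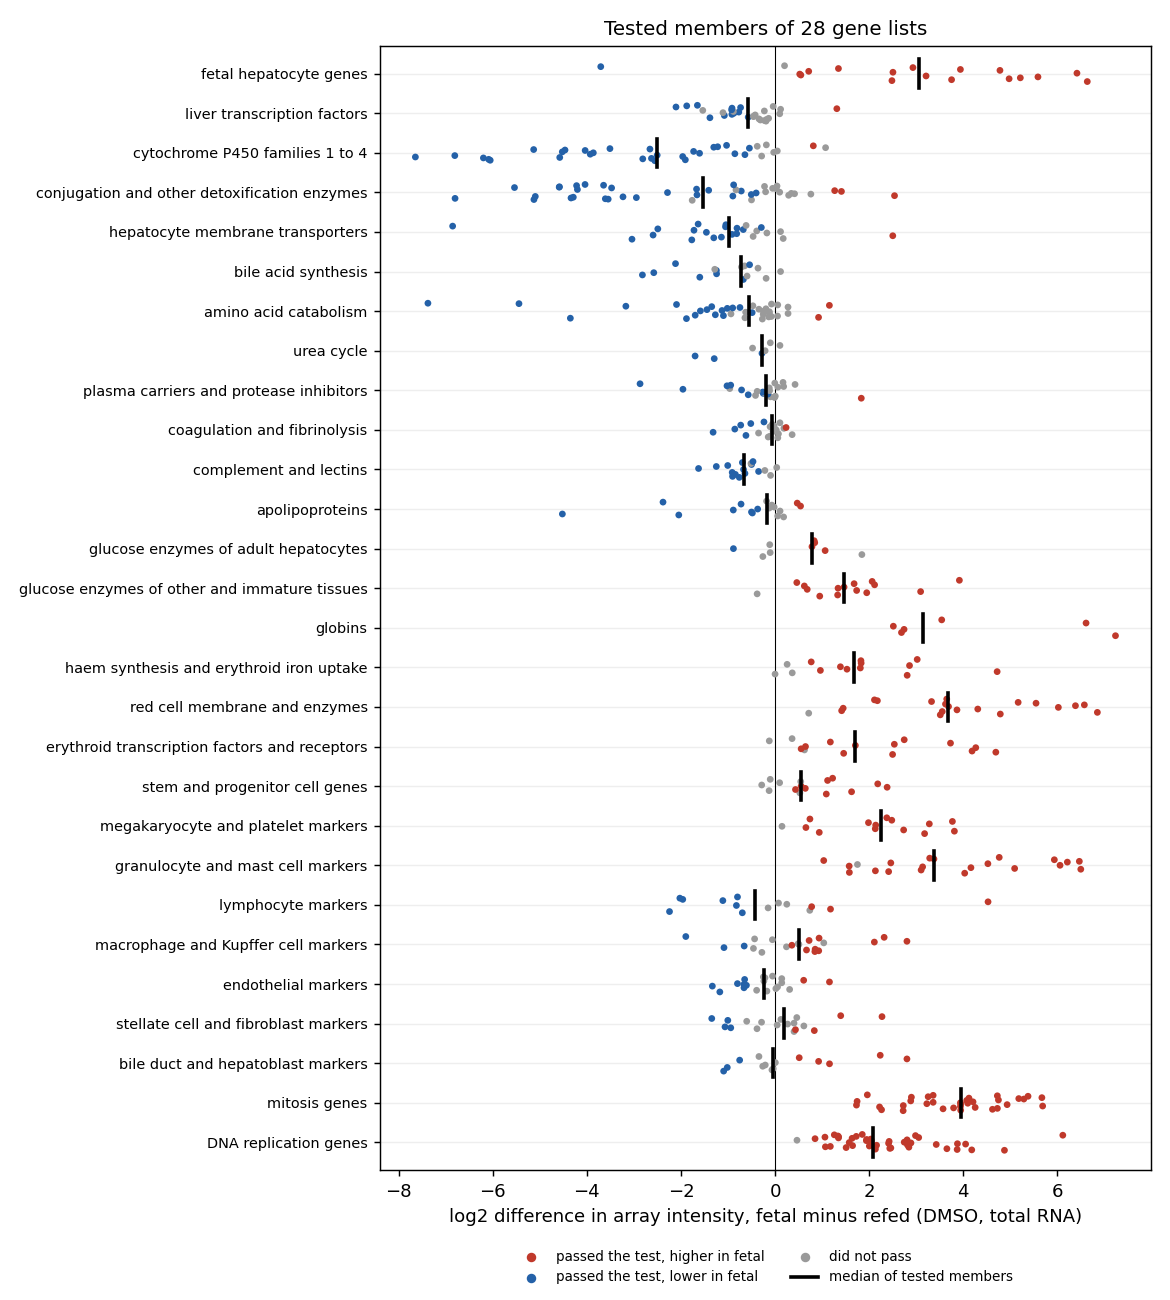
The log2 difference, fetal minus refed, of each tested member of 28 gene lists is plotted on the horizontal axis, 1 list per row; red points are members called higher, blue points members called lower, grey points members that did not pass, and the black bar is the list's median. The P450, detoxification and transporter rows lie mostly to the left of 0 (medians −2.50, −1.54 and −0.98), while the red cell, granulocyte and mitosis rows lie to the right (3.67, 3.38 and 3.95).

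Genes known as marks of the fetal hepatocyte were higher in the fetal livers almost throughout. Of 24 listed genes 19 were on the array and 18 passed the intensity filter, of which 16 rose and 1 fell, with a median of 3.07 (all clusters tested: 25.5% higher, 16.6% lower, median 0.04). Afp, alpha-fetoprotein, was at 14.17, 14.26, 13.90 and 13.86 in fetal arrays 1 to 4 and at 7.64, 7.71 and 6.89 in refed arrays 1 to 3. It was 99.4-fold higher (log2 difference 6.64 ± 0.203, SE, n = 4 and 3; limma adjusted p = 1.69e-14), and no fetal array came near a refed one. Igf2, the fetal growth factor insulin-like growth factor 2, was at 13.91, 14.02, 13.55 and 13.51 against 7.22, 7.37 and 7.40, a difference of 6.42 ± 0.17 (adjusted p = 2.01e-15). Dlk1, a membrane protein of hepatoblasts, was at 13.47, 13.30, 12.67 and 12.53 against 7.73, 8.23 and 8.11, and differed by 4.97 ± 0.247. In the 3 genes fetal arrays 1 and 2 were above arrays 3 and 4, and the groups did not overlap.

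Several of these genes are imprinted, that is, read from the copy of 1 parent. H19, the non-coding RNA next to Igf2, was at 14.06, 14.10, 13.78 and 13.54 in the fetal arrays and 10.94, 10.12 and 10.92 in the refed arrays, a difference of 3.21 ± 0.42 (limma adjusted p = 5.76e-06). Grb10, an adaptor that dampens insulin signalling, rose by 5.59, Meg3, a non-coding RNA, by 4.78, Mest by 3.94, Cdkn1c, an inhibitor of the cell cycle, by 3.75 and the zinc finger gene Plagl1 by 2.93. Gpc3, a glypican that is also used as a marker of liver cancer, rose by 5.21, and Igf2bp1, an RNA-binding protein of fetal tissue, by 2.51. Spink1, a trypsin inhibitor, went the other way: it was at 4.43 to 5.25 in the fetal arrays and at 7.85, 7.16 and 10.96 in the refed arrays, and fell by 3.70 ± 0.7 (adjusted p = 0.000311). Trim71 was at 0.20 ± 0.182 (adjusted p = 0.4).

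Adult liver after partial hepatectomy stayed near the refed liver in these genes. Of the 18 tested, 1 was higher after hepatectomy than in refed liver (8.96% of all clusters were, and 2.67% were lower), and 16 were higher and 1 lower in fetal than in hepatectomy liver (17.2% and 14.7% of all were, 31.9% together). Afp was at 7.63 to 8.33 and Igf2 at 7.08 to 7.42 in the 3 hepatectomy arrays. Mest was the exception, with 7.77 to 8.56 against 6.97, 7.39 and 6.89 in refed liver. The comparisons share arrays, so their values are given side by side only.

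**Figure D2:**
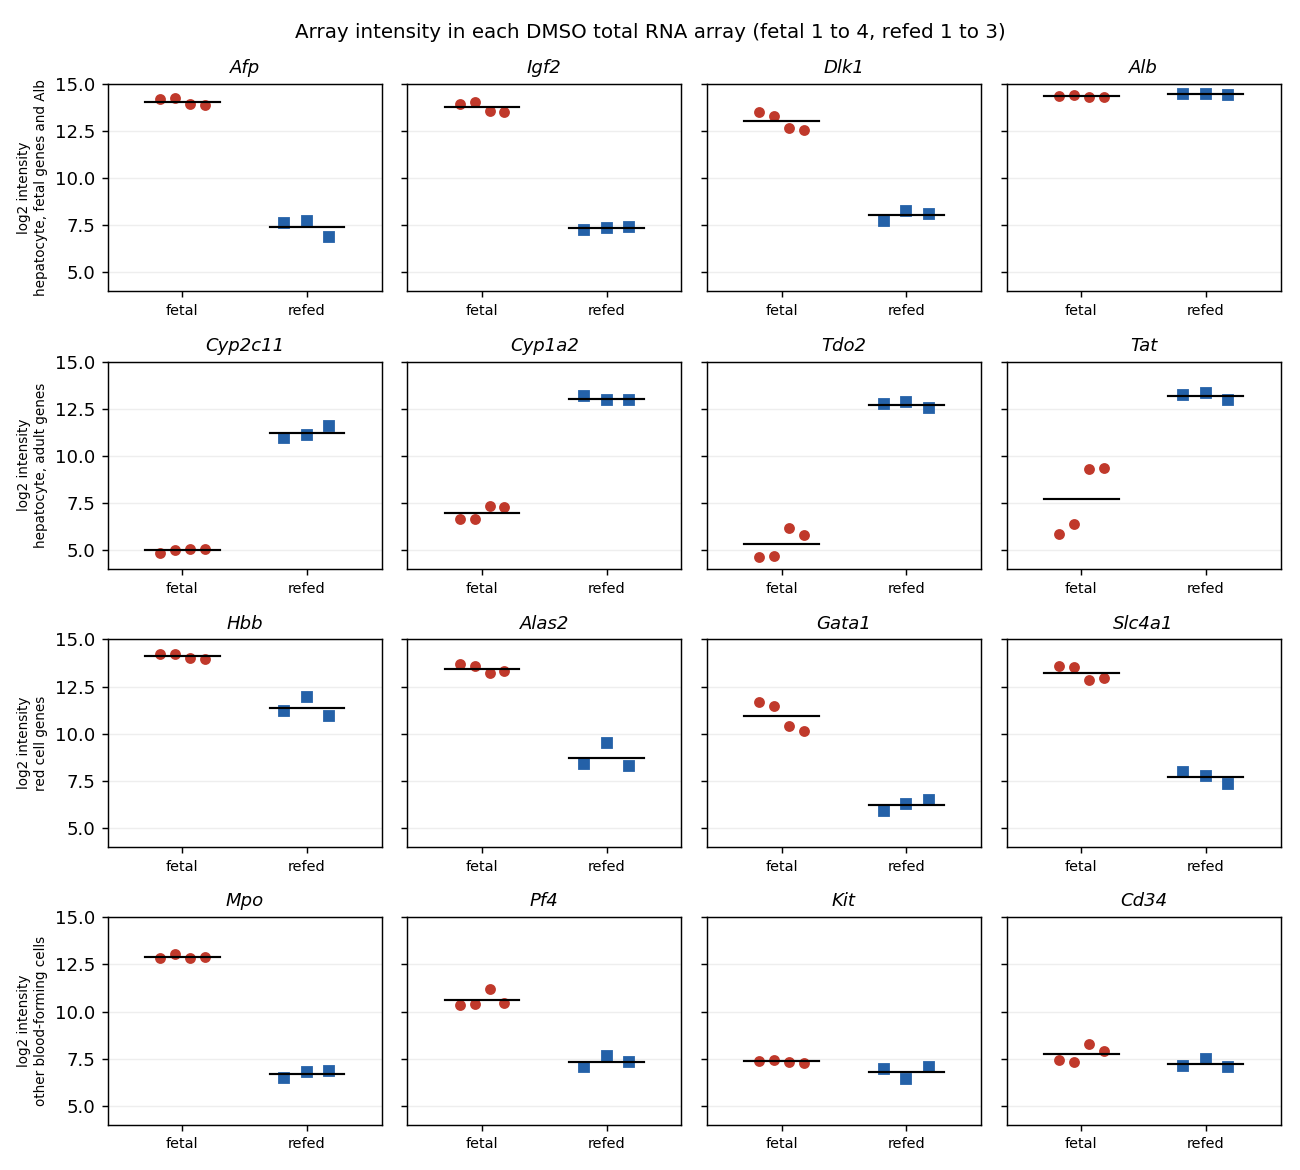
Log2 intensity in each of the 4 fetal and 3 refed arrays for 16 genes, 1 point per array, with a line at each group's mean; the rows show fetal hepatocyte genes with Alb, adult enzymes, red cell genes, and granulocyte, platelet and progenitor genes. Alb lies between 14.29 and 14.45 throughout, Cyp2c11 drops from 10.95 to 11.60 in the refed arrays to 4.88 to 5.09 in the fetal ones, and Mpo lies at 12.83 to 13.04 in the fetal arrays and 6.46 to 6.83 in the refed ones.

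Of 29 tested transcription factors of the hepatocyte, 12 fell, 1 rose and 16 did not pass, with a median of −0.57 (all clusters tested: 16.6% lower, 25.5% higher). Hnf4a, the nuclear receptor at the centre of the hepatocyte programme, was at 11.94, 11.82, 12.29 and 12.20 in the fetal arrays and 13.06, 12.93 and 12.95 in the refed arrays, and fell by 0.92 ± 0.124 (limma adjusted p = 8.26e-06). Larger falls were those of Tbx3 (−2.11 ± 0.337), a T-box factor, Zbtb20 (−1.88 ± 0.291) and Zhx2 (−1.65 ± 0.204), both known as repressors of Afp after birth, and Foxa1 (−1.38 ± 0.19), which opens liver chromatin. Cebpa, a driver of hepatic metabolism, was at −0.22 ± 0.204 (adjusted p = 0.404). Ppara, the receptor that turns on fatty acid oxidation, was called higher at 1.31 ± 0.474 (adjusted p = 0.0328), but refed array 3 was at 9.27 against 11.96 and 11.46, and without it the difference was 0.50 (adjusted p = 0.303). The call was also lost without fetal array 1, 3 or 4.

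Cytochromes P450, the oxidases of drugs, steroids and fatty acids, had the lowest median of the lists. Of 42 listed members of families 1 to 4, 37 were on the array and 35 were tested, of which 28 fell and 1 rose (median −2.50), with 25 falling more than 2-fold. Cyp2c13 was at 5.74, 5.34, 6.79 and 6.70 in fetal arrays 1 to 4 and at 13.83, 13.94 and 13.58 in the refed arrays, and fell by 7.64 ± 0.281 (limma adjusted p = 2.22e-13). Cyp2c11, a testosterone hydroxylase of the adult male, was at 4.88, 5.02, 5.09 and 5.07 against 10.95, 11.10 and 11.60, and fell by 6.20 ± 0.315. Cyp1a2, which oxidises caffeine and aromatic amines, was at 6.66, 6.64, 7.32 and 7.27 against 13.16, 12.95 and 12.97. In these genes all 4 fetal arrays were at least 5 log2 units below every refed array. Closely related P450 genes can share probes, so the values of single Cyp2c, Cyp2a and Cyp3a members are uncertain.

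In other members fetal arrays 1 and 2 were far below arrays 3 and 4. Cyp3a23-3a1, of the family that handles many drugs and bile acids, was at 5.52 and 5.30 in these but at 9.92 and 9.88 in arrays 3 and 4, against 12.81, 13.22 and 12.34 in the refed arrays. Its difference was −5.13 ± 1.08 with all arrays and −2.88 without fetal arrays 1 and 2 (limma adjusted p = 0.000809 and 0.0188). Cyp3a2 followed the same course, at 6.11, 6.21, 11.41 and 11.43 against 13.45, 13.47 and 12.84. Cyp2e1, which oxidises ethanol and acetone, was already at 10.08, 8.90, 10.60 and 10.48 in the fetal arrays against 13.90, 13.92 and 13.82, and fell by 3.86 ± 0.299. Cyp4f5 was the 1 member that rose (0.81 ± 0.267), a call that was lost without fetal array 4 or refed array 3, and Cyp4a8 was at 1.07 ± 0.837 without passing. Without fetal arrays 1 and 2, 23 of the 35 fell, and without arrays 3 and 4, 29 did.

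The promoters of Afp and of Cyp3a23-3a1 are shown because one gene rose and the other fell and each holds a match to a motif of a hepatocyte factor. Sequences are from RefSeq on the rat assembly GRCr8, 5′ to 3′ on the gene's strand, with the match in capitals and positions counted back from the annotated start site.
Afp (chr14:17875746-17875815, minus strand, bases −170 to −101): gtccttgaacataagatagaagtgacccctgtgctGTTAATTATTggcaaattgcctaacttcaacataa
Cyp3a23-3a1 (chr12:14398884-14398953, minus strand, bases −150 to −81): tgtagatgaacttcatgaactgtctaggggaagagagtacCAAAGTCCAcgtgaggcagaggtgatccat
The Afp match is to a motif of HNF1, and the Cyp3a23-3a1 match is to CAAAGTCCA, a motif of HNF4. Over the 250 bases before the start site, on both strands, the HNF1 motif was found in 0.331% of all 27457 promoters and the HNF4 motif in 0.331%. Among the 201 of 245 genes of 10 hepatocyte lists that had a promoter in the table, 6 (2.99%) held the HNF1 motif and 8 (3.98%) the HNF4 motif. A match is a run of letters and not a measured binding site.

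Enzymes that conjugate or hydrolyse drugs and hormones were lower as a group. Of 42 tested, 26 fell and 3 rose, with a median of −1.54. The median was −0.92 without fetal arrays 1 and 2, and without refed array 2 there were 6 that rose. The carboxylesterase Ces1c was at 5.66, 5.44, 6.34 and 7.72 in the fetal arrays and 13.03, 13.23 and 13.02 in the refed arrays, and fell by 6.80 ± 0.401 (limma adjusted p = 1.9e-10). Sulfotransferases followed, with Sult1c2 at −5.54 ± 0.52, Sult1c3 at −4.59 ± 0.799 and Sult2a1 at −4.58 ± 0.665, all past the threshold. Without fetal arrays 1 and 2 the Sult1c3 difference was −2.79. Aldh1a1, which makes retinoic acid, fell by 5.12 ± 0.328, and the glucuronosyltransferase Ugt2b1 fell by 3.64. The rises were of Gstp1, a glutathione transferase known from immature and tumour cells, by 1.27 ± 0.224, of Gstm5 by 1.41 ± 0.355 and of Ephx2, an epoxide hydrolase, by 2.54 ± 0.529. Ephx2 was spread in the adults, at 6.598 to 9.89, and the same difference in rapamycin-treated livers was 0.27.

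Uptake and export proteins of the hepatocyte membrane were mostly lower too, with 17 of 24 falling and 1 rising (median −0.98), or 3 rising without fetal arrays 1 and 2. Slco1a4, which takes up organic anions and steroids, was at 4.84, 5.01, 4.09 and 5.53 in the fetal arrays and at 11.87, 12.16 and 11.14 in the refed arrays, and fell by 6.85 ± 0.345 (limma adjusted p = 2.26e-11). Abcg5, which exports sterols into bile, fell by 2.59 ± 0.325. Abcb11, the bile salt export pump, was at 9.81, 10.14, 12.14 and 12.23 against 12.90, 12.64 and 13.01. Its fall of 1.77 ± 0.48 (adjusted p = 0.00595) was 0.66 without fetal arrays 1 and 2, where the change was no longer called (adjusted p = 0.135). Abcg2, a transporter that red cell precursors also express, rose by 2.50 ± 0.336, from 7.43, 8.33 and 6.71 to 9.78, 10.14, 9.90 and 10.14.

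Bile acid synthesis was uneven. Of 15 enzymes and carriers 8 fell, none rose and the median was −0.71. Without fetal arrays 1 and 2, 4 fell (median −0.28), without arrays 3 and 4 there were 13 (median −1.48) and without fetal array 4 alone there were 12. Baat, which joins bile acids to taurine or glycine, fell by 2.82 ± 0.349 (limma adjusted p = 2.91e-06), and Cyp39a1 by 2.58 ± 0.307. Cyp7a1, the rate-limiting enzyme of the pathway, was at 10.97, 11.59, 12.91 and 12.72 in the fetal arrays and 13.28, 13.13 and 9.39 in the refed arrays. It differed by 0.12 ± 0.766 (adjusted p = 0.92) and by −1.15 without refed array 3 (adjusted p = 0.151), so that the groups overlapped through that 1 adult. Cyp27a1 was called lower at −1.24 ± 0.429 (adjusted p = 0.0261) and was at −0.33 (adjusted p = 0.496) without fetal arrays 1 and 2, and lost its call without either of these or refed array 1 or 2.

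Genes of amino acid breakdown ranged from large falls to values that did not pass the test. Of 38 tested, 17 fell and 2 rose (median −0.56). Without fetal arrays 1 and 2, 13 fell (median −0.10), and without arrays 3 and 4, 24 did (median −1.07). Tdo2, which opens the ring of tryptophan, was at 4.64, 4.72, 6.17 and 5.81 in the fetal arrays and 12.75, 12.86 and 12.52 in the refed arrays, a fall of 7.38 ± 0.317 (limma adjusted p = 1.99e-12). Tat, the tyrosine aminotransferase induced at birth, was at 5.87 and 6.39 in fetal arrays 1 and 2 and at 9.30 and 9.34 in arrays 3 and 4, against 13.21, 13.31 and 12.98, and fell by 5.44 ± 0.655. Further falls were of Acmsd (−4.35 ± 0.298), of tryptophan breakdown, Prodh (−3.17 ± 0.438), of proline breakdown, and Sds (−2.09 ± 0.336), serine dehydratase. Qprt, which leads tryptophan to NAD, rose by 1.15 ± 0.224, and Agxt2, an aminotransferase, by 0.92 ± 0.218.

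Enzymes at the start of the urea cycle did not pass the test, while 3 later ones fell. Cps1, which fixes ammonia in the mitochondrion, was at 13.72, 13.78, 13.80 and 13.74 in the fetal arrays and 14.09, 13.90 and 13.93 in the refed arrays, a difference of −0.21 ± 0.0885 (limma adjusted p = 0.0637). Under median centring it was −0.39 (adjusted p = 0.00605) and under quantile scaling it stayed at −0.21 and was called (adjusted p = 0.0483). Otc, the next enzyme, was at 0.10 ± 0.162 (adjusted p = 0.642), and the carrier Slc25a15 was at −0.10 ± 0.289. Nags, which makes the activator of Cps1, was at −0.48 ± 0.231 and was called at −0.85 without refed array 3 (adjusted p = 0.0014). Later steps fell, with Asl at −1.70 ± 0.375 (adjusted p = 0.00125; −0.93 without fetal arrays 1 and 2), Arg1, which releases urea, at −1.29 ± 0.28 and Ass1 at −0.28 ± 0.0967 (adjusted p = 0.027). Ass1 lost its call without fetal array 1 or 2 or refed array 1 or 2, with a difference of −0.17 without both fetal arrays.

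Plasma proteins made by hepatocytes included several that did not pass the test. Alb was at 14.36, 14.40, 14.29 and 14.30 in the fetal arrays and 14.45, 14.44 and 14.41 in the refed arrays, a difference of −0.10 ± 0.058 (limma adjusted p = 0.193). Under median centring it was −0.28 (adjusted p = 0.0139) and under quantile scaling −0.19 (adjusted p = 0.0111). The highest intensity on these arrays was 14.80. The transferrin gene Tf was at −0.01 ± 0.0434, and Serpina1, alpha-1-antitrypsin, at 0.06 ± 0.0501. Of 24 tested carriers and protease inhibitors, 9 fell and 1 rose (all clusters tested: 16.6% lower, 25.5% higher). Their median was −0.19, and 17 fell under median centring. Leaving out fetal arrays 1 and 2 gave a median of −0.06. Serpina7, the thyroxine carrier, was at 5.89, 6.65, 10.53 and 10.26 in the fetal arrays against 10.83, 11.58 and 11.20, and its fall of 2.87 ± 0.864 (adjusted p = 0.0119) was 0.81 without fetal arrays 1 and 2 (adjusted p = 0.274). A2m, alpha-2-macroglobulin, was at 14.04 to 14.10 in the fetal arrays and rose by 1.83 ± 0.479. Its level in refed array 3, 13.91, was near that of the fetal livers, and the other refed arrays were at 11.50 and 11.26.

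Among complement and lectin genes 13 of 17 fell and none rose, with a median of −0.67 (−0.41 without fetal arrays 1 and 2), led by C9, of the membrane attack complex, at −1.63 ± 0.268, and Crp, C-reactive protein, at −1.25 ± 0.121 (limma adjusted p = 1.31e-07). Among clotting and fibrinolysis genes 6 of 21 fell and 1 rose (all clusters tested: 16.6% lower, 25.5% higher). The median was −0.06 (0.01 without fetal arrays 1 and 2), and 10 fell under median centring. The 1 rise was lost without refed array 1 or without fetal arrays 3 and 4, and 2 rose without refed array 2. F7, the factor with which clotting starts after injury, fell by 1.32 ± 0.257 (0.85 without fetal arrays 1 and 2), while the fibrinogen gene Fga was at −0.04 ± 0.0975 (adjusted p = 0.771). Among 17 apolipoprotein and related genes 8 fell and 2 rose, with a median of −0.18. Without fetal arrays 1 and 2, 5 fell and the median was 0.05, without fetal arrays 3 and 4 none rose, and without refed array 2 there were 4 that rose. Apoa5, which governs plasma triglyceride, was at 7.07, 7.38, 8.55 and 8.36 against 12.12, 12.23 and 12.73 and fell by 4.52 ± 0.312 (adjusted p = 1.45e-09), and Apoa1, the main protein of HDL, was at 0.18 ± 0.0756.

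Glucose enzymes and transporters typical of other or immature tissues were higher in the fetal livers: 14 of 15 rose, with a median of 1.47. Slc2a3, a neuronal glucose transporter, was at 9.20, 9.20, 9.43 and 9.22 in the fetal arrays and 5.46, 5.36 and 5.22 in the refed arrays, and rose by 3.92 ± 0.149 (limma adjusted p = 3.34e-13). Hk1, a hexokinase of red cells and brain, was at 11.50, 11.68, 10.70 and 10.77 against 8.11, 7.99 and 8.10, a rise of 3.09 ± 0.212, with arrays 1 and 2 above arrays 3 and 4 as in the red cell list. Pkm rose by 2.12 ± 0.204, Slc2a1 by 2.06 ± 0.202, Gys1 by 1.95 ± 0.177, Pygb by 1.68 ± 0.159 and Aldoa by 0.95 ± 0.138. Blood cells express several of these genes, and their part in the rise was not tested.

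Of 9 tested glucose enzymes and transporters of the adult hepatocyte, 4 rose and 1 fell (all clusters tested: 25.5% higher, 16.6% lower). Gys2, liver glycogen synthase, was at 12.57, 12.44, 12.05 and 12.24 in the fetal arrays against 11.58, 11.47 and 10.73, and rose by 1.06 ± 0.198 (limma adjusted p = 0.000271). Pygl, liver glycogen phosphorylase, rose by 0.84 ± 0.136 and Slc2a2, the liver glucose transporter, by 0.83 ± 0.2, or 0.51 without refed array 3. Pklr, the pyruvate kinase of liver and red cells, was called at 0.78 ± 0.296 (adjusted p = 0.0404) but was at 0.39 without refed array 2 (adjusted p = 0.274), and it also lost its call without fetal array 1, 2 or 4, without refed array 1 and under median centring or quantile scaling. Khk, ketohexokinase of fructose breakdown, fell by 0.88 ± 0.208. G6pc1, which releases free glucose, was at 9.13, 10.46, 12.27 and 12.44 in the fetal arrays and at 10.57, 10.32 and 6.80 in the refed arrays, and its difference of 1.85 ± 0.928 did not pass (adjusted p = 0.12). It passed without fetal array 1 (2.49, adjusted p = 0.0397) and was at 0.63 without refed array 3 (adjusted p = 0.62).

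**Figure D3:**
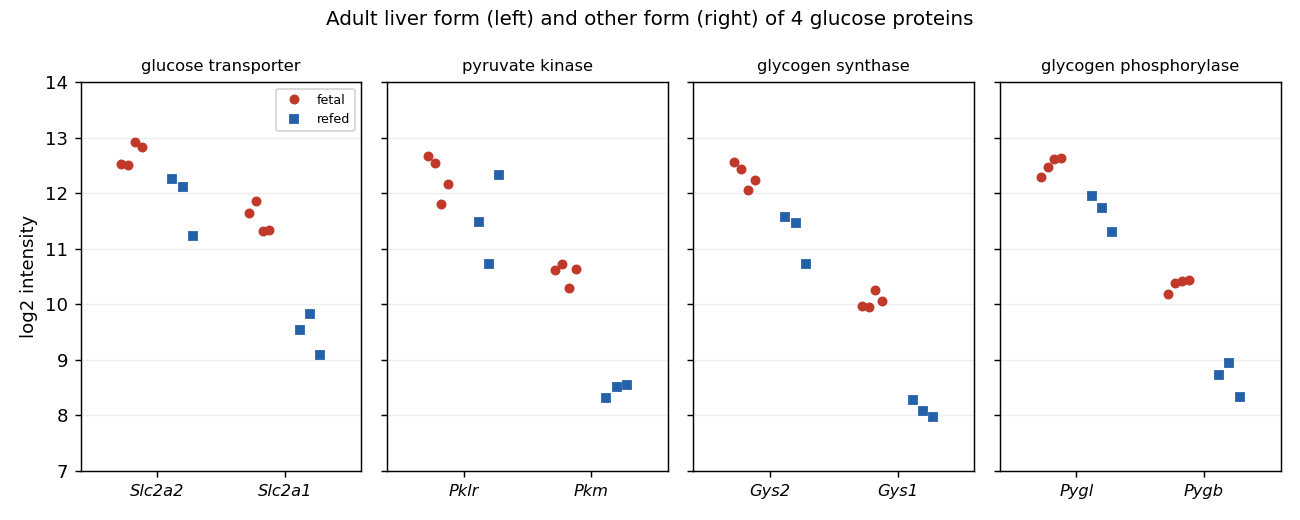
Log2 intensity by array of 4 pairs of genes for the same step of glucose metabolism, the hepatocyte form beside the form of other tissues (Slc2a2 and Slc2a1, Pklr and Pkm, Gys2 and Gys1, Pygl and Pygb), with fetal arrays as red circles and refed arrays as blue squares, 1 point per array. The other-tissue form is higher in all 4 fetal arrays in each pair (differences 2.06, 2.12, 1.95 and 1.68), and the hepatocyte form is not lower on average (0.83, 0.78, 1.06 and 0.84).

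Genes of fasting and of fat metabolism differed in both directions. Igfbp1, a binding protein that insulin represses, was at 12.29, 12.98, 13.63 and 13.66 in the fetal arrays and 10.04, 9.24 and 11.06 in the refed arrays, a rise of 3.03 ± 0.498 (limma adjusted p = 7.64e-05). Pck1, the gluconeogenic enzyme, was at 6.84, 6.70, 10.38 and 9.47 against 10.34, 10.57 and 10.42. Its fall of 2.10 ± 0.723 (adjusted p = 0.0257) lost the call when any 1 of 5 arrays was left out and was 0.52 without fetal arrays 1 and 2 (adjusted p = 0.509). Thrsp and Me1, which serve fatty acid synthesis, fell by 4.09 ± 0.43 and 2.28 ± 0.285, whereas Scd, a desaturase, rose by 1.85 ± 0.505, or 1.23 without fetal arrays 3 and 4 (adjusted p = 0.0995). Of 23 fatty acid oxidation genes 2 fell and none rose, with a median of −0.09 (all clusters tested: 16.6% lower, 25.5% higher). This turned on the fetal pair kept: without arrays 1 and 2, 4 rose and 1 fell (median 0.30), and without arrays 3 and 4, 7 fell and none rose (median −0.37). Without refed array 2, 3 rose and 1 fell.

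Cholesterol synthesis was higher in the fetal livers, with 12 of 19 genes rising, 1 falling and a median of 0.98. The 1 fall was lost without fetal array 1 or 2 or refed array 1 or 2, and 2 fell without refed array 3. Sqle, which commits squalene to sterols, was at 10.98 to 11.37 in the fetal arrays and 8.03, 9.18 and 9.19 in the refed arrays, a rise of 2.33 ± 0.35 (limma adjusted p = 2.87e-05). Idi1 rose by 1.81 ± 0.391, Fdft1 by 1.74 ± 0.236 and Cyp51 by 1.47 ± 0.25. After partial hepatectomy 10 of the 19 were higher than in refed liver (8.96% of all clusters were), with Sqle at 10.01 to 10.87, and 3 were lower in fetal than in hepatectomy liver (14.7% of all were).

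The axis of growth hormone and insulin-like growth factors (IGF) differed in both directions. Of 18 tested, 6 rose and 5 fell (all clusters tested: 25.5% higher, 16.6% lower). The median of 0.08 became −0.10 under median centring. The median was 0.28 and 3 fell without fetal arrays 1 and 2, and without arrays 3 and 4 it was −0.17. Igf1, the IGF of postnatal life, was at 10.20, 10.29, 12.09 and 11.98 in the fetal arrays and at 13.21, 13.06 and 13.31 in the refed arrays, a fall of 2.06 ± 0.383 (limma adjusted p = 0.000272) that was 1.16 without fetal arrays 1 and 2. Igf2r, which clears Igf2, rose by 1.23 ± 0.22, and Igf1r, the signalling receptor of both factors, by 0.70 ± 0.175. The growth hormone receptor Ghr fell by 0.56 ± 0.127, and Igfals, which holds Igf1 in plasma, by 1.03 ± 0.309. Hamp, hepcidin, the hormone that lowers iron in blood, was at 11.53, 12.65, 13.33 and 13.35 against 13.80, 13.97 and 14.19 and fell by 1.27 ± 0.308 (0.64 without fetal arrays 1 and 2).

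Red cell genes were higher in the fetal livers in each of 4 lists. All 6 globin and globin chaperone clusters that passed the filter rose (7 on the array of 11 listed; median of the 7, 2.74). Hbe1, an embryonic beta-like globin, was at 13.47, 13.45, 11.95 and 11.74 in fetal arrays 1 to 4 and at 6.02, 6.12 and 5.997 in the refed arrays, a rise of 6.61 ± 0.431 (limma adjusted p = 6.97e-10). Hbb, an adult beta globin, was at 14.21, 14.22, 14.01 and 13.96 against 11.19, 11.96 and 10.93, and rose by 2.74 ± 0.242. Ahsp was at 13.31, 13.38, 12.60 and 12.66 against 6.59, 5.88 and 4.79. The adult livers, which also hold circulating blood, thus had Hbb well above the intensity filter of 6.70, while Hbe1 lay below it there. Globin genes are near-identical copies in part, so single members are uncertain.

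Haem synthesis and the membrane of the red cell followed. Of 14 haem and erythroid iron genes 11 rose and none fell, with a median of 1.67. Alas2, the erythroid enzyme that starts haem synthesis, was at 13.69, 13.61, 13.21 and 13.30 in the fetal arrays and at 8.42, 9.51 and 8.27 in the refed arrays, a rise of 4.72 ± 0.356 (limma adjusted p = 4.69e-09). Uros rose by 3.02 ± 0.207, the mitochondrial iron importer Slc25a37 by 2.86 ± 0.259 and Fech, which puts iron into haem, by 1.81 ± 0.257, while Alad, which hepatocytes use as well, was at 0.37 ± 0.207 (adjusted p = 0.17). Of 20 red cell membrane and enzyme genes 19 rose and none fell, with a median of 3.67. Slc4a1, the anion exchanger band 3, was at 13.61, 13.55, 12.84 and 12.93 against 7.96, 7.77 and 7.33 (5.55 ± 0.225), and Car1, the red cell carbonic anhydrase, at 13.15, 13.11, 12.56 and 12.73 against 5.95, 6.25 and 5.91 (6.85 ± 0.21). Rhd and Rhag of the Rh complex rose by 6.57 ± 0.183 and 6.38 ± 0.303. Bpgm, the enzyme that makes 2,3-bisphosphoglycerate, was the member that did not pass (0.72 ± 0.318, adjusted p = 0.0794). In the genes given array by array, fetal arrays 1 and 2 were above arrays 3 and 4.

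Erythroid transcription factors and receptors rose in 12 of 15 cases and fell in none, with a median of 1.71. Gata1, the master factor of red cells and platelets, was at 11.66, 11.45, 10.40 and 10.16 in the fetal arrays and at 5.91, 6.28 and 6.50 in the refed arrays, a rise of 4.69 ± 0.313 (limma adjusted p = 9.35e-10). Klf1, which switches on adult beta globin, was at 12.01, 12.10, 11.40 and 11.07 against 7.31, 7.51 and 7.32 (4.27 ± 0.203). Gfi1b rose by 4.19 ± 0.262, Nfe2 by 3.73 ± 0.401, Tal1 by 2.74 ± 0.253 and Bcl11a, a repressor of embryonic globins, by 2.50 ± 0.297. Epor, the erythropoietin receptor, was at 9.97, 9.76, 9.34 and 9.27 against 7.94, 8.25 and 8.18 and rose by 1.46 ± 0.177. Jak2, its kinase, was at 0.63 and did not pass.

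Promoters of 6 of these genes are shown because they rose together and hold matches to motifs of GATA factors or of KLF1. They are from RefSeq on GRCr8, 5′ to 3′ on the gene's strand, with the match in capitals, and a GATA match reads TTATCA or TTATCT when it lies on the other strand.
Hbb (chr1:167663782-167663851, minus strand, bases −130 to −61): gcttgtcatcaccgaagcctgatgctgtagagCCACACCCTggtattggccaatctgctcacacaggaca
Hbe1 (chr1:167696391-167696460, minus strand, bases −180 to −111): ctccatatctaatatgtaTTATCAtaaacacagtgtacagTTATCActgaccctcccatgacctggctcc
Alas2 (chrX:22895280-22895349, plus strand, bases −170 to −101): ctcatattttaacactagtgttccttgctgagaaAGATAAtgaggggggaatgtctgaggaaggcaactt
Rhag (chr9:27594391-27594460, minus strand, bases −70 to −1): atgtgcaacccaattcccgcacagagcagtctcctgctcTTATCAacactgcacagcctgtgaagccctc
Rhd (chr5:152371090-152371159, plus strand, bases −110 to −41): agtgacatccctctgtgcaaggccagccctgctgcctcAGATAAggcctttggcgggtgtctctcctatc
Klf1 (chr19:40158652-40158721, minus strand, bases −70 to −1): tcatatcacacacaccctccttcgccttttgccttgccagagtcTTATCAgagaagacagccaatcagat
The motifs searched were AGATAA or TGATAA for GATA factors and CCACACCCT for KLF1, on both strands of the 250 bases before the start site. Of the 56 genes of the 4 erythroid lists on the array, 44 had a promoter in the table, of which 15 (34.1%) held a GATA match and 2 (4.55%), Hbb and Add2, a KLF1 match. All 27457 promoters held them in 16.6% and 0.717% of cases, the 10 hepatocyte lists in 18.4% and 0.995%. The Hbb match lies in the sequence known as the CACCC box of beta globin genes. Among all 27457 promoters, overlapping matches of different motifs were found in 2. These counts describe letters, and no binding was measured.

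Among stem and progenitor genes, of 17 on the array 15 were tested, of which 9 rose and none fell, with a median of 0.55. Under median centring 6 rose. Kit, the receptor of stem cell factor, was at 7.41, 7.46, 7.36 and 7.27 in the fetal arrays and 6.95, 6.43 and 7.07 in the refed arrays, a rise of 0.55 ± 0.142 (limma adjusted p = 0.00395) that was 0.36 without refed array 2 and lost its call under median centring (0.37, adjusted p = 0.0596). Cd34, a marker of progenitors and of vessels, was at 7.46, 7.36, 8.26 and 7.90 against 7.14, 7.47 and 7.05 (0.53 ± 0.273, adjusted p = 0.131), and was called at 0.86 without fetal arrays 1 and 2 (adjusted p = 0.0382). Ikzf1 and Mllt3 rose more, by 2.38 ± 0.306 and 2.18 ± 0.486, the latter by 1.18 without fetal arrays 1 and 2. Ptprc, the common antigen CD45 of white cells, was at 9.23, 9.39, 9.12 and 9.52 against 8.67, 8.17 and 9.48 (0.55 ± 0.243, adjusted p = 0.0795) and was called without refed array 3 (0.90, adjusted p = 0.00292). Runx1, a factor of all blood stem cells, was called at 1.12 ± 0.407, with refed array 3 at 10.17 against 8.12 and 8.13. It was at 1.80 without that array, lost its call without any 1 of fetal arrays 1 and 2 and refed arrays 1 and 2 (0.77, adjusted p = 0.184, without refed array 1), and was at 0.71 without both fetal arrays (adjusted p = 0.271).

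Granulocyte genes were higher in the fetal livers. Of 33 listed genes 29 were on the array and 21 passed the intensity filter, of which 20 rose and none fell. The median was 3.38 over these and 2.46 over all 29, where the 8 that did not pass had a mean under 6.70 over the 40 arrays, several mast cell genes among them. Some members passed the filter only through the fetal arrays. In refed and hepatectomy DMSO liver Ngp had means of 5.30 and 5.32, Prg2 of 5.66 and 5.70, and Defa5 of 6.18 and 6.37. For such members a rise was set in advance by the filter, so the count of 20 of 21 is a description. Mpo, myeloperoxidase of neutrophil granules, was at 12.86, 13.04, 12.83 and 12.90 in the fetal arrays and at 6.46, 6.80 and 6.83 in the refed arrays, a rise of 6.21 ± 0.124 (limma adjusted p = 7.78e-17). Elane, neutrophil elastase, was at 12.22, 12.28, 11.999 and 11.97 against 6.65, 7.13 and 7.30 (5.09 ± 0.176), and Prg2, the major basic protein of eosinophils, at 11.46, 11.28, 11.80 and 11.83 against 5.70, 5.84 and 5.44 (5.94 ± 0.211). The 4 fetal arrays were close together in Mpo and Elane, unlike in the red cell genes. Other members varied among the fetal arrays, with the granule protein genes Ngp at 11.63, 10.72, 12.60 and 12.09 (6.47 ± 0.415) and Camp at 8.85, 8.64, 10.99 and 11.18 (4.03 ± 0.522). Lcn2, lipocalin 2, did not pass (1.75 ± 0.996, adjusted p = 0.17): it was at 12.23 to 12.48 in the fetal arrays, at 8.99 and 9.18 in refed arrays 1 and 2 and at 13.74 in refed array 3. Hepatocytes also make it in the acute-phase response.

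Megakaryocyte and platelet genes were higher in the fetal livers as well. The list does not separate megakaryocytes in the liver from platelets in blood. Of 14 megakaryocyte and platelet genes tested 13 rose and none fell, with a median of 2.26. Pf4, platelet factor 4, was at 10.37, 10.40, 11.21 and 10.47 in the fetal arrays and at 7.04, 7.63 and 7.34 in the refed arrays, a rise of 3.28 ± 0.24 (limma adjusted p = 3.23e-09). Gp1ba and Gp5 of the von Willebrand factor receptor rose by 3.81 ± 0.177 and 2.73 ± 0.157, and the chemokine gene Ppbp by 3.77 ± 0.206. Each fetal array was above each refed array in these 4 genes.

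**Figure D4:**
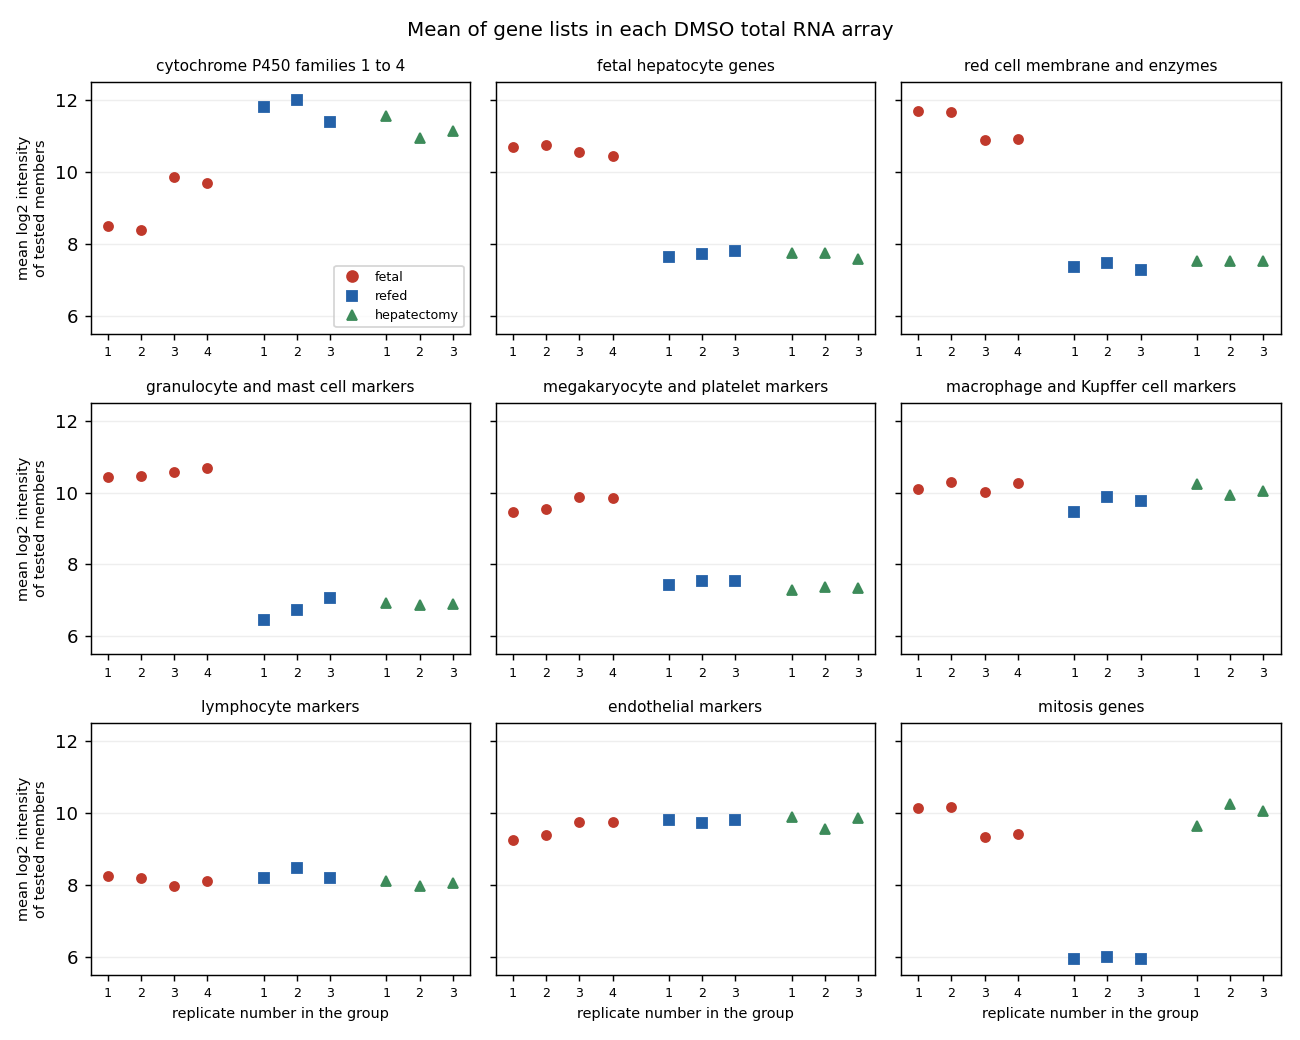
Mean log2 intensity of 9 gene lists in each fetal, refed and hepatectomy DMSO total RNA array, 1 point per array. The red cell list lies at 10.90 to 11.71 in the fetal arrays and 7.28 to 7.46 in the refed arrays, the P450 list at 8.40 to 9.85 and 11.38 to 12.002, and the mitosis list at 9.32 to 10.17, 5.93 to 5.99 and, after hepatectomy, 9.64 to 10.25.

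The lymphocyte markers tested were lower more often than higher. Of 25 on the array 14 passed the filter, of which 3 rose and 7 fell (all clusters tested: 25.5% higher, 16.6% lower). The median was −0.42 over these 14 and −0.15 over all 25. Cd74, the invariant chain of antigen-presenting cells, was at 10.11, 10.20, 10.24 and 10.49 in the fetal arrays and at 12.24, 12.76 and 12.52 in the refed arrays, a fall of 2.24 ± 0.189 (limma adjusted p = 2.13e-08). The class II genes RT1-Da and RT1-Ba fell by 2.02 ± 0.317 and 1.96 ± 0.274, and the killer cell gene Prf1 by 1.11 ± 0.158. Ebf1, a factor of early B cells, rose by 1.18 ± 0.276 and Igll1, of the surrogate light chain of pre-B cells, by 0.78 ± 0.184. Nkg7, a granule gene, rose by 4.53 ± 0.225. The T cell genes Cd3e, Cd3d, Cd3g, Cd8a and Cd8b were below the filter and were not tested.

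Macrophage genes differed in both directions. Of 21 tested, 10 rose and 3 fell (all clusters tested: 25.5% higher, 16.6% lower), and under median centring 8 rose and 5 fell. Lyz2, lysozyme, rose by 2.80 ± 0.421 and the integrin gene Itgam, which granulocytes share, by 2.11 ± 0.218. Vcam1, which erythroblastic island macrophages use to hold red cell precursors, was at 10.67, 10.82, 10.02 and 10.23 in the fetal arrays against 7.60, 7.73 and 9.01, and rose by 2.32 ± 0.435 (limma adjusted p = 0.000291). The 3 falls included Vsig4, a complement receptor of Kupffer cells, at 8.66, 8.997, 8.56 and 8.76 against 10.50, 11.25 and 10.17 (−1.90 ± 0.318), and Clec4f, a lectin of the same cells, at −0.66 ± 0.255 (adjusted p = 0.0463). The other, Cd5l, at −1.09 ± 0.375, lost its call without fetal array 3 (−0.62, adjusted p = 0.072) and without refed array 2 or 3. Cd68, a general macrophage marker, was at 0.24 ± 0.173 and did not pass.

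Markers of the supporting cells of the liver differed in both directions (all clusters tested: 25.5% higher, 16.6% lower). Among endothelial markers 7 of 20 fell and 2 rose, with a median of −0.23. Only 4 fell without fetal arrays 1 and 2, with a median of 0.01, and without arrays 3 and 4, 9 fell and it was −0.50. Fcgr2b, of the sinusoid, fell by 1.33 ± 0.256 (0.77 without fetal arrays 1 and 2), while Lyve1, of the same vessels, was at 0.14 ± 0.105. Kdr, a receptor of vascular endothelial growth factor, fell by 0.80 ± 0.234 (limma adjusted p = 0.00986), and by 0.39 without fetal arrays 1 and 2 (adjusted p = 0.193). Among stellate cell and fibroblast markers 4 of 18 rose and 4 fell, shares near those of all clusters, and 2 fell without fetal array 1. Thy1, which early blood cells also carry, rose by 2.27 ± 0.254 and Vim, vimentin of non-epithelial cells, by 1.40 ± 0.12, while Pdgfrb fell by 1.00 ± 0.208 (0.66 without fetal arrays 1 and 2). Among bile duct and hepatoblast markers 5 of 14 rose and 3 fell, and 3 rose without fetal array 3 or 4 or refed array 1 or 3. Of these Prom1, a surface marker of progenitors, rose by 2.80 ± 0.178 and Cdh1, E-cadherin, fell by 1.09 ± 0.187, and Krt7 was at 0.01 ± 0.138. Among ligands that support blood cells 4 of 10 tested rose, Igf2, Dlk1, Ptn (1.41 ± 0.202) and Tgfb1 (1.24 ± 0.139), and 2 fell, Bmp4 (−0.61 ± 0.138) and Cxcl12. The latter, at −0.94 ± 0.351 (adjusted p = 0.0381), lost its call when any 1 of 6 arrays was left out (−0.60, adjusted p = 0.223, without refed array 1) and was at −1.52 without refed array 3.

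In each of the 35 mitosis genes the fetal arrays lay above the refed arrays, which held for 24.4% of all clusters. The mean of the mitosis list overlapped between fetal livers (9.32 to 10.17) and regenerating livers (9.64 to 10.25). Of the mitosis genes tested, 35 of 35 rose in fetal against refed liver (median 3.95), and 35 of 35 were higher after hepatectomy than in refed liver (median 3.98; 8.96% of all clusters were). In fetal against hepatectomy liver none of them was higher and 5 were lower, beside 17.2% and 14.7% of all clusters. Plk1, a mitotic kinase, was at 11.85, 11.87, 11.01 and 11.13 in the fetal arrays, at 6.34, 6.18 and 6.34 in the refed arrays and at 11.26 to 11.71 after hepatectomy (fetal minus refed 5.18 ± 0.313, limma adjusted p = 2.63e-10). Of 42 DNA replication genes 41 rose in fetal against refed liver (median 2.09), and 12 were also higher in fetal than in hepatectomy liver, such as Mcm2, of the replicative helicase, at 11.73, 11.82, 11.17 and 11.21 against 10.35 to 10.59. Dividing hepatocytes and dividing blood precursors cannot be told apart in these values. Red cell genes, by contrast, stayed low after hepatectomy: 1 of 20 was higher than in refed liver, and 19 of 20 were higher in fetal than in hepatectomy liver.

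The comparison could be repeated in other animals of the series, the rapamycin-treated fetal and refed livers. There 22.0% of the clusters were called higher and 18.7% lower. Fetal rapamycin arrays 1 to 4 split by replicate number much as the fetal DMSO arrays did. Their P450 list means were 8.85, 8.71, 9.76 and 9.24, and their red cell list means 11.76, 11.73, 10.95 and 11.15. The labels do not say what same-numbered fetuses share, so these livers were not shown to be an independent repeat. Of the calls in DMSO livers 1930 were called higher again (69.6% of the DMSO calls, 81% of those in rapamycin livers) and 1263 lower again (70.1% and 62.2%). A difference in the same direction was found for 95.5% of the DMSO calls. In the rapamycin livers 28 of the 35 cytochromes P450 fell, 16 of 18 fetal hepatocyte genes rose, 19 of 20 red cell genes and 20 of 21 granulocyte genes rose, and 35 of 35 mitosis genes rose. The granulocyte count carries the limit of the intensity filter given above. The macrophage list was less alike: 4 of 21 rose and 3 fell (median 0.10), against 10 and 3 in DMSO livers (median 0.51). Of 13 gluconeogenesis and fasting genes 2 rose and 4 fell (median −0.08), against 4 and 3 in DMSO livers (median 0.47). Refed rapamycin array 2 and fetal rapamycin array 4 held RNA of pancreas markers (list means 10.49 and 8.46, other arrays of these groups 7.14 to 7.47). Without both, 1765 were called higher and 1185 lower as in DMSO livers, 27 cytochromes P450 fell, and 16 fetal hepatocyte, 19 red cell and 35 mitosis genes rose. Afp differed by 6.42, Cyp2c13 by −8.28, Gata1 by 4.47 and Mpo by 6.07. A test of the difference between the treatments called 1 of 10860 clusters (0.00921%) at a limma adjusted p under 0.05, Psat1, with 1260 at an unadjusted p under 0.05. Psat1 lost its call without refed rapamycin array 2 (adjusted p = 0.0843) and without fetal rapamycin array 4 (adjusted p = 0.0676). The lack of further calls does not show that the differences were equal.

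**Figure D5:**
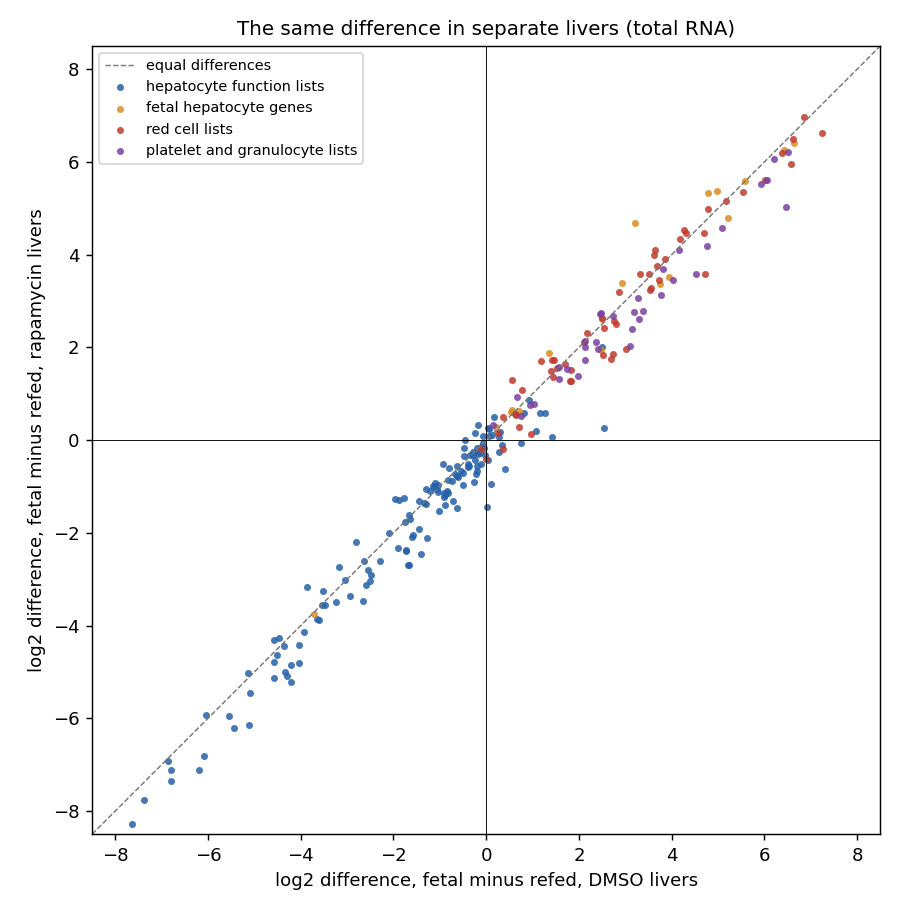
The log2 difference, fetal minus refed, in DMSO livers (horizontal axis) against the same difference in rapamycin livers (vertical axis) for members of the hepatocyte function, fetal hepatocyte, red cell, and platelet and granulocyte lists, 1 point per gene; the dashed line marks equal differences. Most points lie near the line, from Cyp2c13 (−7.64 and −8.28) to Ahsp (7.23 and 6.63), while Ephx2 lies off it (2.54 and 0.27).

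Polysome RNA of DMSO livers with the same replicate numbers, the fraction loaded with ribosomes, was read on separate arrays and normalised with the rest. In it 25.2% of the clusters were higher and 28.4% lower in fetal liver, 53.6% together. There 29 of 35 cytochromes P450 fell, 19 of 20 red cell genes rose and 20 of 21 granulocyte genes rose, the last again under the limit of the intensity filter. Afp differed by 6.29 and Tdo2 by −7.15 in polysome RNA (6.64 and −7.38 in total RNA). These arrays share their replicate numbers with the total RNA arrays, and were not taken as an independent repeat.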

How the data were processed

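Total RNA of 4 fetal and 3 refed adult rat livers was read on Affymetrix Rat Gene 1.0 ST arrays. The authors deposited linear intensities per transcript cluster, made with RMA per the submitters' processing notes. The software versions, the settings and the annotation build were not given in the sources used here. Of 28826 clusters, 15209 carried 1 gene symbol in the platform annotation, 306 several and 13311 none, and 15178 symbols matched the RefSeq gene table. A gene with several clusters was represented by the brightest.

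Log2 intensities of the 20 total RNA arrays were fitted in 6 groups with limma 3.58.1 in R 4.3.3 (lmFit, eBayes with a variance trend, 14 residual degrees of freedom). Named clusters with a mean log2 intensity over the 40 arrays at or above the 30th percentile (6.70) were tested, and p-values were adjusted by Benjamini-Hochberg over all 10860 of them, with a threshold of 0.05. On simulated data for this comparison, over 10860 clusters, 83% of 100 changes of log2 size 1 and 99% of 100 of size 2 were called, with 10 false calls. The simulated arrays had independent noise, unlike the 2 pairs of fetal arrays, and few clusters were changed. These rates check the fit and do not measure the error in the real data. The number of arrays limits the precision.

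Genes named by rule were the 20 largest rises and falls, up to 6 members per list with the largest difference past the threshold, all members of the globin, urea cycle and glucose enzyme lists, and a set of fixed genes. Further list members were added as examples after their values were seen, and were not refitted one by one with arrays left out. The members and lists were chosen with earlier results of these data known. Replicate numbers did not pair the livers: the deviations of same-numbered fetal and refed arrays correlated at −0.0182, −0.131 and −0.13. Alternatives were other scalings, filters, sets of arrays in the fit, a replicate block and arrays left out.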

Additional observations from a re-analysis of the deposited data

Results flagged for a closer look

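In the fetal group of 4, the highest or lowest array stood apart from the other 3 by Dixon's gap criterion for 8 of 274 genes checked, where chance flags about 1 in 20. Fetal array 4 was high for the transcription factor gene Gata6 (9.10, other fetal arrays 8.92 to 8.93) and for Apoa4, an apolipoprotein (8.83, others 8.38 to 8.45). Fetal array 3, the one with pancreas markers, was high for Slc2a3 (9.43, others 9.20 to 9.22) and for Pf4 (11.21, others 10.37 to 10.47). Fetal array 1 was low for Me1 (6.88, others 7.48 to 7.55), for Angpt1, a vessel and stem cell ligand (7.04, others 7.73 to 7.80), and for the phosphofructokinase gene Pfkp (7.37, others 7.63 to 7.67). Fetal array 2 was high for A2m (14.10, others 14.04 to 14.05).

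The fetal to refed difference itself differed between treatments for Psat1, an enzyme of serine synthesis, by −1.86 (rapamycin minus DMSO, limma adjusted p = 0.0177). It was at 13.22, 12.89, 12.74 and 12.80 in the fetal and 8.96, 9.50 and 9.16 in the refed DMSO livers, and at 12.23, 12.80, 12.48 and 12.26 in the fetal and 10.80, 10.64 and 10.34 in the refed rapamycin livers. The difference was thus 3.71 with DMSO and 1.85 with rapamycin, with all refed rapamycin livers above all refed DMSO livers. The call was lost without refed rapamycin array 2 (−1.84, adjusted p = 0.0843) and without fetal rapamycin array 4 (−1.80, adjusted p = 0.0676), the arrays with RNA of pancreas markers, both left out after seeing the data. Without both the difference was −1.78 (adjusted p = 0.276).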

How the results depend on the processing

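No cluster was called in the opposite direction under any alternative. Leaving out 1 array, or fetal arrays 1 and 2 or 3 and 4 together (the pairs chosen after seeing the data), gave 2305 to 2978 higher and 1237 to 1894 lower calls. Median centring gave 3089 lower calls, and 41.24% of the calls were then higher against 60.61%. Quantile scaling gave 50.73% and cyclic loess 54.64%. The 7 arrays fitted alone gave 1177 lower calls. A filter at the 60th percentile, which tests 6206 clusters, gave 1594 higher and 1159 lower calls. With the replicate number as a block, 1526 were higher and 779 lower, and 2271 of the 4572 calls remained. As the numbers do not pair the livers, a lost call there is no sign of a weaker effect. Of named gene results, 4275 stayed on their side of the threshold, 154 lost and 18 gained a call over all alternatives. The arrays limit the low end: with no detection calls, differences against dim values have no measured floor. At the high end, Alb, Cps1 and fetal Hbb lay near the highest log2 intensity, 14.80. Whether intensities level off there was not tested, so small differences between such bright values are uncertain too.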

Other observations

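Several of the largest differences lay outside the lists. Olfm4, olfactomedin 4, known from neutrophil precursors and gut, was at 11.80, 11.91, 11.86 and 11.71 in the fetal arrays and 5.42, 5.70 and 5.58 in the refed arrays (log2 difference 6.25 ± 0.16, SE; limma adjusted p = 1.5e-15). Stfa3, a stefin, was higher by 5.96 ± 0.171, and Bex4 by 6.67 ± 0.419. Rbp2, a retinol-binding protein best known from gut, was at 12.99, 12.90, 12.47 and 12.52 against 6.21, 7.59 and 6.78. In each of these genes all 4 fetal arrays were above all 3 refed arrays.

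Among the falls outside the lists, Car3, a carbonic anhydrase of liver and muscle, was at 6.87, 7.14, 6.52 and 6.45 in the fetal arrays against 13.98, 13.91 and 13.19 (−6.95 ± 0.256, limma adjusted p = 2.26e-13). Pigr, the receptor that carries IgA into bile, was at 6.79, 6.96, 8.58 and 8.39 against 13.69, 13.58 and 13.56, and Glyat, which joins glycine to acids, at 5.37, 6.35, 7.96 and 7.47 against 12.52, 12.43 and 11.79. Fetal arrays 3 and 4 were above arrays 1 and 2 in Pigr and Glyat, as in the P450 list, and not in Car3.

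Ints2, Pnp and Commd4 were called in opposite directions in DMSO livers (−0.52, 0.39 and 0.42) and rapamycin livers (0.65, −0.36 and −0.39), while the test of the difference did not pass in any of them (limma adjusted p = 0.405 in each). Of genes read by several tested clusters, Krt8, a keratin of liver epithelium, was called by 1 cluster (0.93 ± 0.312) and not by the other (0.64 ± 0.263), and the call was lost without fetal array 3 or 4 or refed array 1 or 3 (0.63, adjusted p = 0.147, without refed array 3). Pkm rose by 2.12 and 1.15, Rrm2, a subunit of ribonucleotide reductase, by 6.12 and 4.66, and H19 by 3.21 and 3.44.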
